A study of Mus musculus with 26 samples.

Results

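A set of 10 genes of mesothelium and lining epithelium were followed through visceral fat of lean, obese and formerly obese mice. They are Msln, Upk3b, Upk1b, Wt1, Krt8, Krt18, Krt19, Lrrn4, Cldn4 and Psca, 10 of the 39017 genes in the count tables, matched by symbol. The genes were selected on the adipocytes themselves: Cldn4 and Psca were among the largest falls in obese adipocytes, and mesothelial markers fell with them. The difference between obese and lean adipocytes is therefore a description here and carries no test, while the stromal fraction and the comparison of fractions in formerly obese mice were not used in the choice.

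Male wild type C57BL/6J mice were 9 to 10 weeks old when the diets began. Lean mice ate a 10% fat diet for 12 weeks (LFD), obese mice a 60% fat diet for 12 weeks (HFD), and formerly obese mice the HFD for 9 weeks and then the LFD for 3 weeks (SW). Epididymal fat pads were digested with collagenase, and floating adipocytes were parted by centrifugation from the pelleted stromal vascular cells (SVC), which were then treated to lyse red cells. The labels list 3 RNA-sequencing libraries per diet in each fraction, as 26 records of paired-end or single reads. All SW adipocyte records are paired-end, the other groups mix both types, and no count column gives its read type. Count columns could be matched to a group by name for 9 adipocyte libraries, 3 per diet, and for 6 SVC libraries, 1 LFD, 2 HFD and 3 SW, and another 3 columns were not used. The parting is by buoyancy, with no sort for a marker. The sources used here do not say which mouse gave which count column, so p-values measure the spread between libraries.

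The mesothelium is the single sheet of flattened cells that covers the organs of the abdomen, the epididymal fat pad included. These cells are of mesodermal origin but carry epithelial features, among them simple keratins, and the transcription factor Wt1 is known from their development. Lining epithelia of ducts and of the urinary tract also make keratins and uroplakins, together with claudins that seal the space between neighbouring cells. The male fat pad lies against the epididymis, the coiled duct that carries sperm.

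Among the 10 genes, Msln, Upk3b, Lrrn4 and Wt1 are the mesothelial markers in the narrower sense. Msln encodes mesothelin, a surface glycoprotein, Upk3b a uroplakin of the mesothelial surface, Lrrn4 a membrane protein with leucine-rich repeats, and Wt1 a zinc finger transcription factor. Krt8, Krt18 and Krt19 encode keratins of simple epithelia, in which type II keratin 8 pairs with type I keratins such as keratin 18. Upk1b encodes a tetraspanin uroplakin of the urothelial plaque, Cldn4 a tight junction claudin, and Psca a small surface protein anchored by a lipid.

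Promoter sequence is shown for Upk3b, the mesothelial marker with the highest level per length in adipocytes, and for Cldn4, the gene with the largest fitted difference between HFD and LFD adipocytes. Upk3b kept a part of its level in every adipocyte library, while Cldn4 was at or near 0 in all HFD adipocyte libraries. Each run holds the 250 bases before the RefSeq start on GRCm38.p6, 5′ to 3′ on the strand of the gene, with capitals at matches of CANNTG (E-box), GGAATG (TEAD) or GGGCGG (GC box), searched on both strands. The Upk3b run is chr5:136038246-136038495 on the plus strand and the Cldn4 run chr5:134946935-134947184 on the minus strand, both ending at the base before the annotated gene.
Upk3b: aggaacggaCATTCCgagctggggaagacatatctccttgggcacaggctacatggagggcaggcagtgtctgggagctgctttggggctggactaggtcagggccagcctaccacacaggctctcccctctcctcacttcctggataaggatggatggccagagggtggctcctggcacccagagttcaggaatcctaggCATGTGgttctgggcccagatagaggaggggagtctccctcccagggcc
Cldn4: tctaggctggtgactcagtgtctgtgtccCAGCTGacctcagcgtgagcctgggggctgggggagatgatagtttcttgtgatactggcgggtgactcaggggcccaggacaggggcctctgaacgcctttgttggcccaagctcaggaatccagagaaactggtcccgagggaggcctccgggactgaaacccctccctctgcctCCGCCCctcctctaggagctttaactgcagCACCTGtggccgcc

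A promoter was found for 5 of the 10 genes, namely Upk3b, Krt8, Krt18, Lrrn4 and Cldn4, and not for Msln, Upk1b, Wt1, Krt19 and Psca. An E-box stood in 4 of these 5 windows and in 66.2% of all 32851 windows of that length. The TEAD letters stood in Upk3b and Lrrn4 and in 12.6% of all windows, and the GC box in Cldn4 and in 32.7% of all windows. None of the 5 windows held a TATA box, read as the letters TATAAA, the GRHL letters AACNGGTT or the letters GCGTGGG of WT1 and EGR, which were found in 12.4%, 1.79% and 4.30% of all windows. Krt8 and Krt18 lie on chromosome 15 with 23697 bases between the annotated genes, and are transcribed away from each other. The GC content of the 5 windows ran from 58.0% to 62.0%, against a median of 52.4% over all windows.

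The libraries held between 5781902 and 23725647 counts, and the smallest of each fraction was an LFD library. Levels are given as CPM, counts scaled to a library total of 1000000, and a count of 0 allows up to 3 counts, or 0.126 to 0.519 CPM. Folds are log2 fold changes from edgeR's fit of all diets of a fraction. A gene is called where edgeR's quasi-likelihood test gave a Benjamini-Hochberg adjusted p under 0.05 over all genes tested. The adipocyte label held, as 6 adipocyte markers summed to 11658 CPM or more in each adipocyte library and to 1480 CPM or less in each SVC library. Several libraries stood apart. In SVC, HFD library 411 had 33.5% of its counts on mitochondrial genes against 6.34% in HFD library 212, and library 212 had 0.287% on hemoglobin genes against 2.76% to 5.15% in the other SVC libraries. The only LFD library used in SVC, 236, held epithelial and epididymal transcripts at levels given below.

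In adipocytes, LFD mice had the highest mean level of all 10 genes. The 4 mesothelial markers showed differences of unequal size. Msln was at 10.3, 13.8 and 9.85 CPM in the LFD libraries 404, 405 and 406, at 6.38, 1.43 and 3.43 CPM in the HFD libraries 401, 402 and 403, and at 3.09, 5.59 and 4.74 CPM in the SW libraries 407, 408 and 409. The LFD libraries lay above every HFD and SW library, and the HFD and SW libraries overlapped. The fitted log2 fold change of Msln was -1.72 ± 0.41 (SE) for HFD against LFD.

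Upk3b was the most abundant of the mesothelial markers per length in adipocytes. Its level was 25.9, 24.0 and 32.1 CPM in LFD, 12.8, 3.79 and 7.31 CPM in HFD and 6.72, 11.6 and 14.0 CPM in SW adipocytes, in the same order of libraries. The LFD libraries again lay above all others, and the log2 fold change for HFD against LFD was -1.86 ± 0.35.

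Lrrn4 and Wt1 showed the smallest differences between HFD and LFD. Lrrn4 was at 4.40, 4.61 and 4.93 CPM in LFD, at 5.64, 0.885 and 3.34 CPM in HFD, and at 1.59, 2.77 and 2.40 CPM in SW adipocytes. One HFD library lay above all LFD libraries, so the HFD and LFD groups overlapped, with a log2 fold change of -0.60 ± 0.49. Wt1 was at 4.07, 5.93 and 3.86 CPM in LFD, at 4.25, 3.67 and 4.42 CPM in HFD, and at 2.65, 3.56 and 2.92 CPM in SW adipocytes. Its log2 fold change for HFD against LFD was -0.25 ± 0.23, and its SW libraries were the lowest, just under the lowest HFD library.

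The keratins showed larger log2 fold changes than the mesothelial markers. Krt19 was at 31.6, 13.2 and 46.3 CPM in LFD, at 4.42, 1.10 and 2.21 CPM in HFD, and at 3.27, 2.58 and 9.11 CPM in SW adipocytes, with a log2 fold change of -3.67 ± 0.62 for HFD against LFD. Krt18 was at 24.1, 8.21 and 42.7 CPM in LFD, at 2.37, 0.337 and 0.948 CPM in HFD, and at 1.41, 1.66 and 6.12 CPM in SW adipocytes. No HFD or SW library reached the lowest LFD library for either keratin, and the log2 fold change of Krt18 was -4.53 ± 0.80.

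Krt8, the partner of Krt18, was at 23.9, 10.3 and 28.9 CPM in LFD, at 8.75, 0.759 and 1.80 CPM in HFD, and at 2.47, 2.64 and 8.09 CPM in SW adipocytes. Its log2 fold change of -2.64 ± 0.77 was smaller in size than that of Krt18. Per kilobase of transcript, the ratio of Krt8 to Krt18 was 0.496 to 0.924 in the LFD, 1.40 to 2.71 in the HFD and 0.970 to 1.28 in the SW adipocyte libraries. These 3 ranges did not overlap, but they rest on few counts. HFD library 402 had 18 Krt8 and 8 Krt18 counts, and SW library 407 had 28 and 16. No counting interval was set on the ratios, and whether they differ between diets was not tested. In SVC the ratio was 1.91 to 1.98 in SW, 1.22 in LFD, and 0.677 and 1.87 in HFD libraries.

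Upk1b, Cldn4 and Psca made up the rest of the epithelial genes. Upk1b was at 22.3, 8.57 and 31.2 CPM in LFD, at 2.54, 0.717 and 2.53 CPM in HFD, and at 1.15, 2.58 and 5.25 CPM in SW adipocytes, with a log2 fold change of -3.47 ± 0.61 for HFD against LFD. Cldn4 had 58, 12 and 87 counts in the LFD libraries, which is 9.44, 0.609 and 11.6 CPM, against 0, 0 and 3 counts in the HFD libraries. Over the summed counts of each group, Cldn4 was 91.1-fold higher in LFD than in HFD adipocytes, with a 95% counting interval from 30.6 to 447.

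In SW adipocytes Cldn4 had 0, 1 and 33 counts, so that library 409 alone, at 2.40 CPM, held nearly all of them. Psca had 105, 54 and 227 counts in LFD (17.1, 2.74 and 30.2 CPM), 1, 0 and 8 counts in HFD and 2, 1 and 45 counts in SW adipocytes (0.177, 0.0615 and 3.28 CPM). Its log2 fold change for HFD against LFD was -6.67 ± 1.40, and that of Cldn4 was -6.87 ± 1.68. At such counts these fitted values depend on the prior count of the fit. Both genes passed the filter on low counts only through LFD libraries and SW library 409, since neither reached the filter's level in any HFD library.

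**Figure D1:**
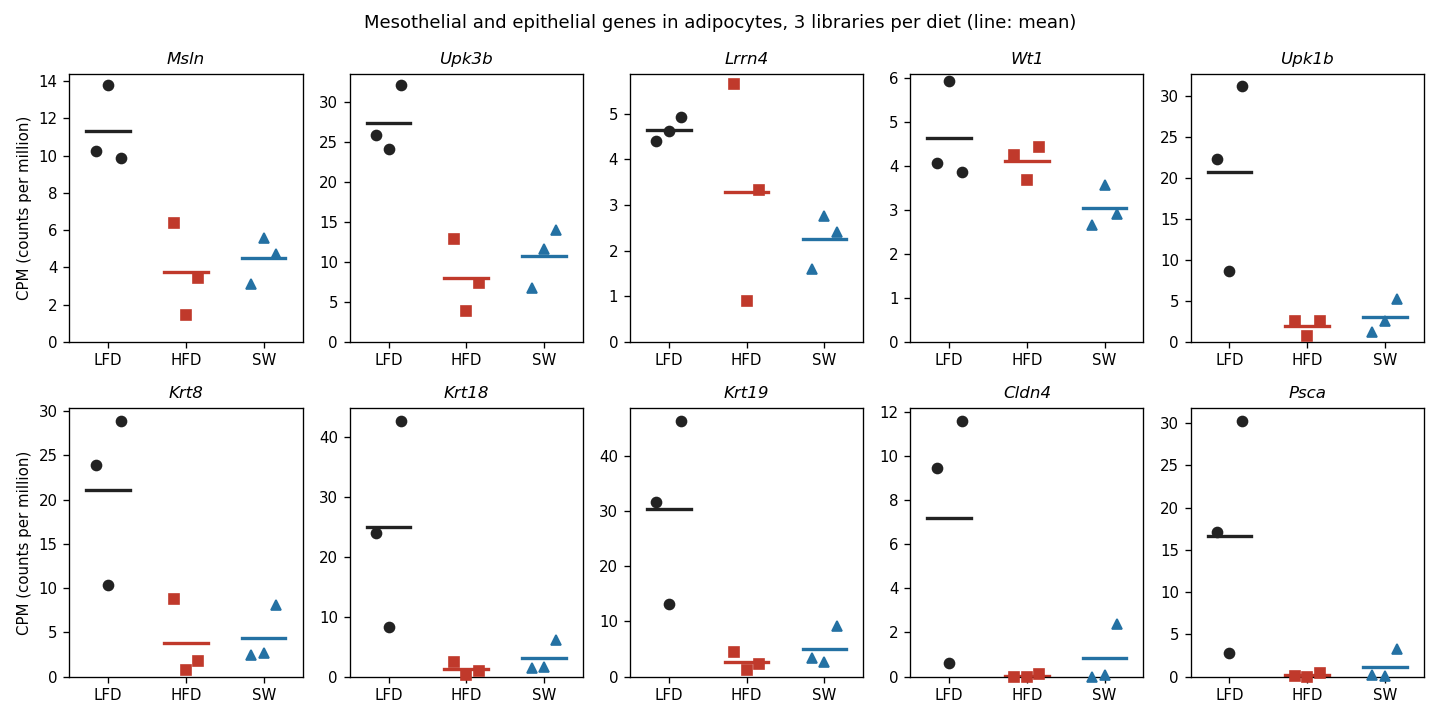
CPM of each of the 10 genes in the 3 LFD (circles), 3 HFD (squares) and 3 SW (triangles) adipocyte libraries, with a line at the group mean and a linear axis from 0 in each panel. In 8 panels, all but Lrrn4 and Wt1, every HFD library lies under every LFD library, and for Cldn4 and Psca 1 SW library stands above the other SW libraries.

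Of the 10 genes, 8 were called lower in HFD than in LFD adipocytes, where 25.0% of all 14461 genes tested were called lower. Without overlap between the libraries, 8 genes lay below LFD, against 28.7% of all genes. Both counts repeat the choice of the genes and are given as a description. The median log2 fold change of the 10 genes was -3.06, against -0.03 over all genes. With LFD libraries 404 and 406 left out, an alternative chosen after the values were seen, library 405 alone stood for LFD, assumed to vary like the other groups, and 5 genes were called lower (Msln, Upk3b, Upk1b, Krt18 and Krt19), again on the values that chose them. The call of Krt8 was also lost without LFD library 406 alone, at -2.31, without HFD library 403, at -2.29, and with no filter on low counts, at -2.59. In a bulk library, fewer cells of a type and less RNA per cell cannot be told apart.

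Per kilobase of transcript, the order of mean levels differed between the diets. In LFD adipocytes Psca (19.4 CPM per kilobase), Krt19 (19.3) and Krt18 (17.4) led, followed by Upk1b (10.9), Krt8 (10.8), Upk3b (7.74), Msln (5.22), Cldn4 (3.97), Wt1 (1.50) and Lrrn4 (1.25). In HFD adipocytes Upk3b (2.26) and Krt8 (1.93) led, Msln (1.73) and Krt19 (1.63) followed, and Psca (0.172) and Cldn4 (0.0248) were last. Neighbours in the LFD order among the first 6 genes did not differ beyond the spread of their libraries, which for Krt18 ran over a 5.20-fold range and for Psca over an 11.0-fold range.

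The LFD libraries differed from each other in the epithelial genes. The mean of libraries 404 and 406 over library 405 was 17.3-fold for Cldn4, 8.64-fold for Psca, 4.07-fold for Krt18, 3.12-fold for Upk1b, 2.94-fold for Krt19 and 2.55-fold for Krt8. For the mesothelial markers the same ratio was 1.21 for Upk3b, 1.01 for Lrrn4, 0.729 for Msln and 0.668 for Wt1. Library 405 was thus the lowest LFD library for the 6 epithelial genes and the highest for Msln and Wt1.

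A like division was seen among the SW adipocyte libraries. Library 409 was above the mean of libraries 407 and 408 by 78.3-fold for Cldn4 (33 counts against 0 and 1), 27.5-fold for Psca, 3.98-fold for Krt18, 3.16-fold for Krt8, 3.11-fold for Krt19 and 2.81-fold for Upk1b. The ratio was 1.53 for Upk3b, 1.10 for Lrrn4, 1.09 for Msln and 0.938 for Wt1. These ratios are within groups and were not tested.

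Of 12 other epithelial genes, outside the 10, the 3 most abundant in adipocytes (Krt7, Krt5 and Cdh1) were also lowest in library 405 among the LFD libraries. Krt7, a keratin of simple ducts, was at 35.7, 7.66 and 62.4 CPM in LFD libraries 404, 405 and 406, at 1.53 CPM or less in HFD, and at 1.50, 1.35 and 8.60 CPM in SW adipocytes. Krt5, a keratin of basal epithelial cells, was at 27.0, 2.59 and 40.3 CPM in LFD, at 0, 0.0421 and 0.767 CPM in HFD, and at 0.0884, 0.0615 and 3.79 CPM in SW adipocytes. Cdh1, the adhesion protein E-cadherin, was at 5.53, 0.811 and 5.19 CPM in LFD and at 1.80 CPM or less in HFD and SW libraries. Others did not share this pattern. Epcam was at 2.60, 1.27 and 1.33 CPM in LFD and at 2.86 CPM in HFD library 401, and Cldn3 at 0.326, 0.811 and 0.533 CPM in LFD, highest in library 405.

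Of 12 other epithelial genes, 7 were tested in adipocytes, and 5 of them were called lower and 0 higher in HFD than in LFD, with a median log2 fold change of -3.05. Among those called, Cldn7 passed the filter on low counts only through LFD libraries, reaching 0.409 CPM in HFD and 0.437 CPM in SW. Such a call is a description. The summed level of the 12 genes was 16.2 to 124 CPM in LFD, 0.927 to 8.59 CPM in HFD and 3.32 to 18.8 CPM in SW adipocytes. Grhl2, a transcription factor of epithelia, was at 0 in all HFD libraries and at 0.399 CPM or less elsewhere in adipocytes. The HFD library with the highest sum, 401, was also the one with the most Krt8 and Lrrn4.

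The 12 other mesothelial genes moved in both directions. Of the 11 tested, 6 were called lower (Muc16, Nkain4, Gpm6a, Rspo1, Slpi and Cldn15) and 2 higher (Aldh1a2 and Pdpn) in HFD than in LFD adipocytes. Their median log2 fold change was -0.99. Over all 14461 genes tested, 3612 (25.0%) were called lower and 3836 higher. Cldn15, a claudin that is also made outside the mesothelium, was at 110, 113 and 110 CPM in LFD and at 65.4, 46.0 and 47.2 CPM in HFD adipocytes. Aldh1a2, an enzyme of retinoic acid synthesis, reached 9.28 CPM at most in LFD and 20.9 CPM in HFD adipocytes. Muc16, which encodes the antigen CA125, was at 1.33 to 2.03 CPM in LFD and at 0.211 to 0.271 CPM in HFD adipocytes. It was under the filter's level of 0.729 CPM in every HFD library. As it passed through LFD libraries and SW library 408, at 0.799 CPM, its call is a description.

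**Figure D2:**
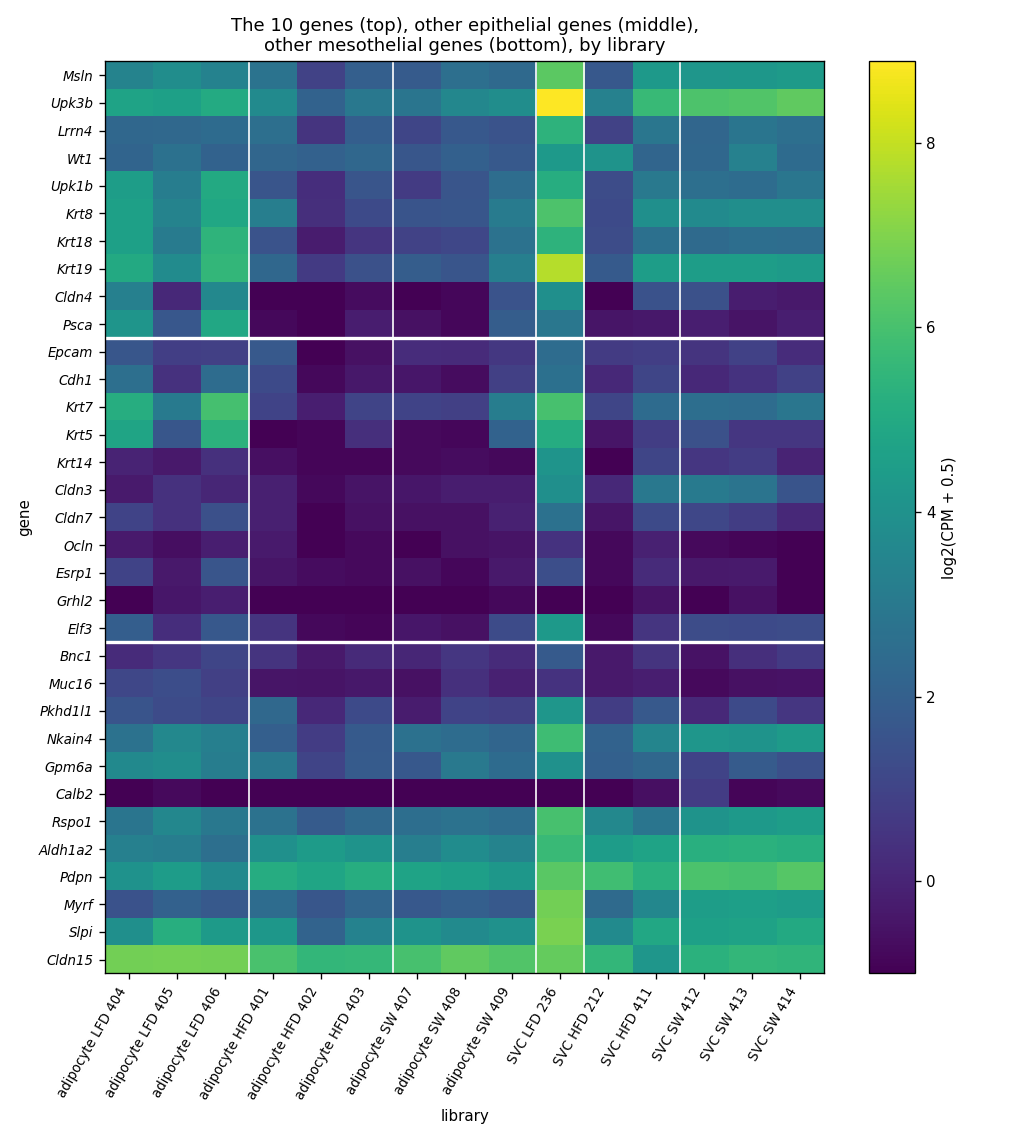
Level of the 10 genes (top), 11 other epithelial genes (middle) and 12 other mesothelial genes (bottom) in each of the 15 libraries, as log2 of CPM plus 0.5, with 1 column per library. Krt7 and Krt5 are brightest in adipocyte LFD libraries 404 and 406 and in SVC LFD library 236, as are Krt18 and Psca among the 10 genes in adipocytes.

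Other cell types moved with the diet in the same libraries, where 3836 of all 14461 genes tested were called higher and 3612 lower in HFD than in LFD adipocytes. All 6 macrophage markers were called higher in HFD than in LFD adipocytes, and their summed level was 447 to 819 CPM in LFD, 6373 to 8117 CPM in HFD and 4410 to 4978 CPM in SW adipocytes. Of 6 adipocyte markers, 4 were called lower, with sums of 28408 to 37717 CPM in LFD, 11658 to 17949 CPM in HFD and 21471 to 24236 CPM in SW. Of 6 smooth muscle and pericyte markers 5 were called lower, with sums of 1625 to 2047 CPM in LFD and 511 to 809 CPM in HFD. Of the 12 genes of epididymis and vas deferens epithelium 1 was tested, Crisp1, and the list summed to 3.25 to 10.3 CPM in LFD, 0.0843 to 5.46 CPM in HFD and 2.55 to 3.13 CPM in SW adipocytes. In HFD, 8 of these genes, among them the lipocalins Lcn5, Lcn8 and Lcn9, were at 0 in every adipocyte library, and 4 of the 8 (Lcn5, Crisp4, Cst8 and Spint4) were at 0 in every LFD adipocyte library too. The part of these cell types in the levels of the 10 genes was not tested.

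After the change of diet, the mean CPM of each of the 10 genes in adipocytes was nearer to the HFD than to the LFD mean. For Wt1 and Lrrn4 the SW mean, 3.04 and 2.25 CPM, lay below both, as the HFD mean was 4.11 and 3.29 CPM. None of the 10 was called between SW and HFD adipocytes by edgeR, where 31.4% of all genes were called in either direction, and 0 of the 10 had an unadjusted p under 0.05. DESeq2 and limma-voom also called 0. The log2 fold changes for SW against HFD were 0.42 ± 0.42 for Msln, 0.58 ± 0.35 for Upk3b, -0.32 ± 0.23 for Wt1 and -0.38 ± 0.50 for Lrrn4. Those of the keratins were 0.46 ± 0.78 for Krt8, 1.58 ± 0.84 for Krt18 and 1.14 ± 0.63 for Krt19. With these errors no direction was shown. None of the 10 had all SW above all HFD libraries, against 18.3% of all genes, and Wt1 had all SW libraries below.

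For Upk1b the log2 fold change for SW against HFD was 0.77 ± 0.63. Those of Cldn4 and Psca, 3.85 ± 1.93 and 2.92 ± 1.61, rested on library 409. Without that library they were -0.34 and -0.35. These libraries of HFD mice are the ones on which the genes were chosen, so the difference from SW is a description too.

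Against LFD, 5 of the 10 genes were called lower in SW adipocytes, where 6.18% of all genes were called lower. They were Upk3b at -1.29 ± 0.34, Upk1b at -2.70 ± 0.59, Krt18 at -2.95 ± 0.72, Krt19 at -2.53 ± 0.58 and Psca at -3.75 ± 1.12 on the log2 scale. The values of the others were -1.29 ± 0.41 for Msln, -0.57 ± 0.24 for Wt1, -2.18 ± 0.75 for Krt8, -0.98 ± 0.50 for Lrrn4 and -3.02 ± 1.23 for Cldn4. Without overlap, 8 genes lay below LFD, all but Cldn4 and Psca, against 18.7% of all genes. The LFD libraries are shared with the comparison that chose the genes, so this count is no independent support.

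The count of 5 for SW against LFD was not steady. It was 1 without LFD library 406 or without SW library 408, 2 without SW library 407 and 3 without LFD library 404. Genes called lower over all genes tested fell too, from 894 of 14461 to 570 of 14878 without 406 and 571 of 14730 without 408. They were 626 of 14928 without 407 and 661 of 14872 without 404. With library 409 left out 6 genes were called, where 681 of all 14870 genes tested were called lower. That count includes Cldn4 and Psca, which then passed the filter on low counts only through LFD libraries. Leaving out each of the 6 libraries in turn, the call was lost 5 times for Upk3b, 4 times for Psca, 3 times for Krt18 and 2 times for Krt19. Psca also lost its call in 5 of 8 other alternatives, and Msln, not called in the fit above, was called in 6 of 9. Of the 12 other mesothelial genes 2 (Muc16 and Cldn15) were called lower in SW than in LFD adipocytes, and so was Krt7. Over all genes tested, 6.18% were called lower.

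**Figure D3:**
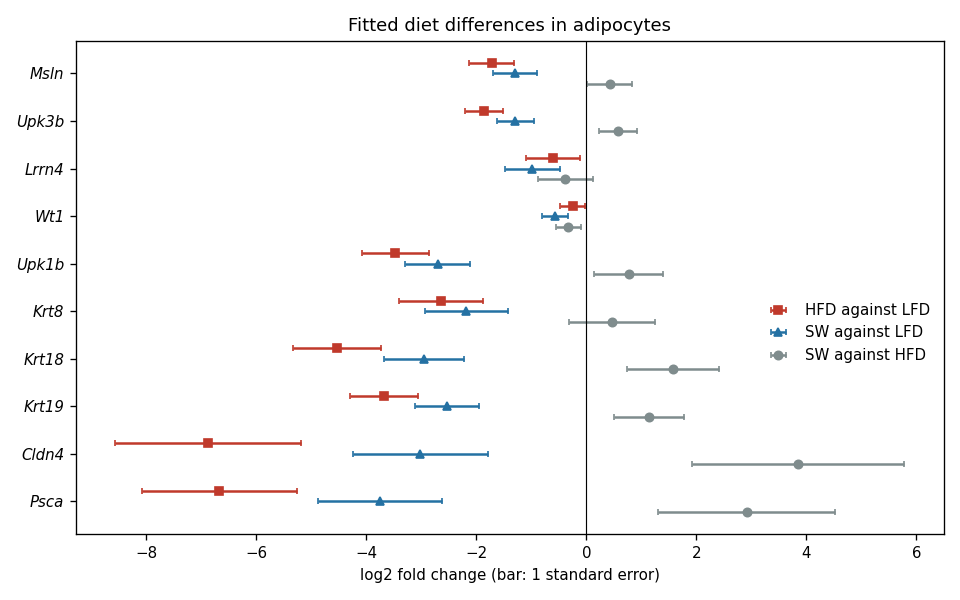
Fitted log2 fold changes in adipocytes with bars of 1 standard error, for HFD against LFD (squares), SW against LFD (triangles) and SW against HFD (circles). HFD and SW values lie left of 0 for all 10 genes against LFD, with the widest bars for Cldn4 and Psca.

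Over the 9 adipocyte libraries, the genes most like the mean of the 10 standardised log2 levels were Perp (Pearson r = 0.976), Mapt (0.973), Rhpn2 (0.970), Pde5a (0.969) and Zdhhc18 (0.967), among the 12794 genes whose mean log2 CPM reached 1. Perp, which encodes a protein of desmosomes, had mean levels of 10.2 CPM in LFD, 0.743 CPM in HFD and 1.48 CPM in SW adipocytes. Zdhhc18, an enzyme that adds palmitate to proteins, differed less, with means of 43.6, 33.8 and 33.9 CPM. The correlations describe libraries that share diet and depth, with no p.

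In SVC the same genes were measured apart from their choice. The single LFD library had the highest level of each of the 10 genes. Upk3b was at 471 CPM there (95% Clopper-Pearson interval of counting error only, 454 to 489), at 9.54 and 50.1 CPM in HFD libraries 212 and 411, and at 68.2, 72.2 and 87.0 CPM in SW libraries 412, 413 and 414. Msln was at 83.5 CPM (76.3 to 91.3) in LFD, at 2.82 and 19.6 CPM in HFD and at 17.9, 18.3 and 20.2 CPM in SW. Krt19 was at 217 CPM (205 to 229) in LFD, at 2.98 and 22.0 CPM in HFD and at 22.0, 22.0 and 20.6 CPM in SW. The SW libraries lay close together for these genes, and the HFD libraries far apart.

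Krt8 was at 69.0 CPM (62.4 to 76.1) in LFD, at 1.83 and 14.6 CPM in HFD and at 12.9, 14.2 and 14.4 CPM in SW SVC. Krt18 was at 41.7 CPM (36.6 to 47.3) in LFD, at 1.98 and 5.72 CPM in HFD and at 4.82, 5.45 and 5.33 CPM in SW SVC. For both keratins HFD library 411 lay above every SW library, with overlapping counting intervals, while for Upk3b it lay below. Lrrn4 was at 41.9 CPM (36.7 to 47.5) in LFD, at 1.45 and 6.90 CPM in HFD and at 4.33, 6.58 and 5.53 CPM in SW SVC. Upk1b was at 34.8 CPM (30.1 to 39.9) in LFD, at 1.98 and 7.41 CPM in HFD and at 5.61, 5.09 and 6.92 CPM in SW SVC.

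Wt1 differed from these genes in the HFD libraries. It was at 19.9 CPM (16.4 to 23.9) in LFD and at 16.2 CPM in HFD library 212, where the other markers were lowest, but at 4.21 CPM in HFD library 411. In SW SVC Wt1 was at 4.43, 9.60 and 5.04 CPM. Cldn4 was at 14.7 CPM (11.7 to 18.2) in LFD, at 0 and 2.30 CPM in HFD, and at 2.26, 0.360 and 0.296 CPM in SW SVC. Psca was at 7.09 CPM (5.09 to 9.62) in LFD and at 0.395 CPM or less in each HFD and SW library, with 8 counts over both HFD and 13 over all SW libraries.

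The level in the LFD library was 3.13 times the SW mean for Wt1, 4.44 times for Msln, 6.22 times for Upk3b, 10.1 times for Krt19, 15.1 times for Cldn4 and 21.0 times for Psca. Only 1 LFD column was matched in SVC, although the labels list 3 such libraries, so this difference has no replicate check and no test here. That library also had 173 CPM of the 12 other epithelial genes, against 4.73 and 22.3 CPM in HFD and 16.0 to 22.9 CPM in SW SVC. It had 611 CPM of the 12 other mesothelial genes, against 150 to 163 CPM in HFD and 227 to 256 CPM in SW SVC.

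Epididymal transcripts marked 2 SVC libraries. The 12 genes of epididymis and vas deferens epithelium summed to 100 CPM in LFD library 236, with Lcn8 at 43.4 CPM and Lcn9 at 14.4 CPM, and to 133 CPM in HFD library 411, where Crisp1 made up 120 CPM. Their sum was 13.3 CPM in HFD library 212 and 7.01 to 19.6 CPM in SW SVC. Lcn9 was at 0 in all HFD and SW SVC libraries, and Lcn8 at 0.0561 CPM or less. The part of epididymal cells in the levels of the 10 genes in these libraries was not tested.

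**Figure D4:**
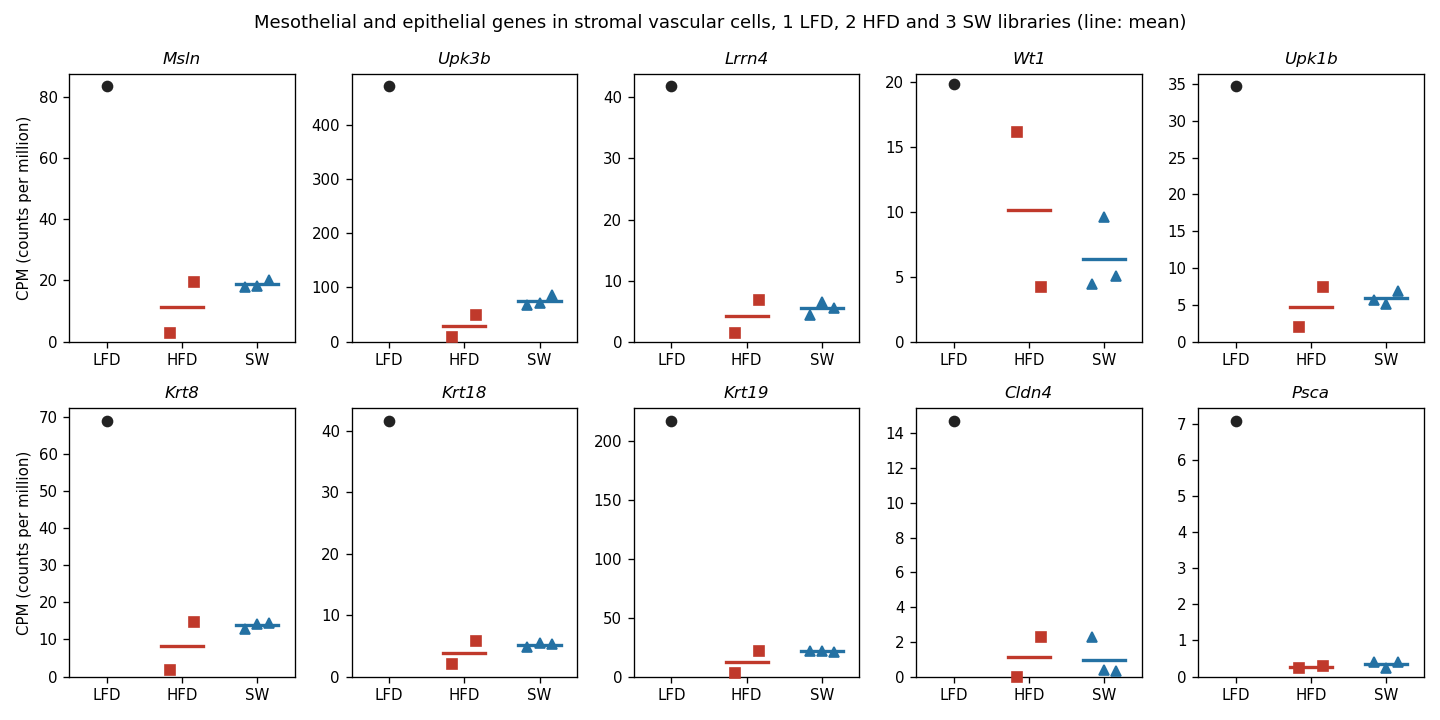
CPM of each of the 10 genes in SVC, with 1 LFD library (circle), 2 HFD libraries (squares) and 3 SW libraries (triangles), a line at the mean of HFD and of SW, and a linear axis from 0 in each panel. The LFD library is the highest point of every panel, and the HFD libraries are farther apart than the SW libraries in all panels but Psca.

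Between SW and HFD SVC, 0 of the 10 genes were called by edgeR's quasi-likelihood test, where 17.5% of all 16319 genes tested were called in either direction. None had an unadjusted p under 0.05, and DESeq2 and limma-voom also called 0. The adjusted p-values ran from 0.289 for Upk3b, at a log2 fold change of 1.18 ± 0.80, to 0.852 for Upk1b, at 0.19 ± 0.71. Msln was at 0.56 ± 0.85, Krt19 at 0.59 ± 0.85, Krt8 at 0.56 ± 0.88, Lrrn4 at 0.23 ± 0.75 and Wt1 at -0.45 ± 0.48. Upk3b was the only gene with all SW libraries above both HFD libraries. Errors of this size do not show that the levels were alike.

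The HFD libraries decided this comparison. Library 411 was above library 212 by 7.97-fold for Krt8, 7.39-fold for Krt19, 6.96-fold for Msln, 5.25-fold for Upk3b, 4.76-fold for Lrrn4, 3.73-fold for Upk1b and 2.89-fold for Krt18, while Wt1 was at 0.260 times the level. Leaving out either library left 1 HFD library, assumed to vary like the other groups, so only sizes are given. Without library 411, the log2 fold changes for SW against HFD were 3.17 for Msln, 3.43 for Upk3b and 2.0 for Upk1b. They were 3.34 for Krt8, 1.81 for Krt18, 3.28 for Krt19 and 2.34 for Lrrn4. Without library 212 the values of 6 of these 7 genes turned below 0, from -0.53 for Lrrn4 to -0.23 for Krt19. Of the 12 other mesothelial genes 1 was called higher in SW than in HFD SVC (Rspo1), and of the 11 other epithelial genes tested 0 were called. Both counts are from the fit of all SVC libraries, where 17.5% of all genes were called in either direction.

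In SW mice both fractions had 3 libraries, and the mesothelial markers were lower in adipocytes than in SVC. Upk3b was lower by a log2 fold change of -3.29 ± 0.24 (adjusted p = 2.2e-05, edgeR), with 6.72 to 14.0 CPM in adipocytes and 68.2 to 87.0 CPM in SVC. Msln was lower at -2.53 ± 0.22 (adjusted p = 4.1e-05, edgeR), Lrrn4 at -1.73 ± 0.29 (adjusted p = 0.00090, edgeR) and Wt1 at -1.50 ± 0.32 (adjusted p = 0.0035, edgeR). For each of these 4 markers, all adipocyte libraries lay below all SVC libraries.

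Among the epithelial genes, Krt19 was lower in SW adipocytes at -2.57 ± 0.43 (adjusted p = 0.00092, edgeR) and Krt8 at -2.12 ± 0.43 (adjusted p = 0.0025, edgeR), again without overlap. Upk1b was lower at -1.45 ± 0.47 (adjusted p = 0.023, edgeR), with 1.15 to 5.25 CPM in adipocytes and 5.09 to 6.92 CPM in SVC, and library 409 reached into the SVC range. Krt18 was at -1.24 ± 0.52 and did not pass (adjusted p = 0.061, edgeR). The call of Upk1b was lost at -0.98 without SW adipocyte library 407, at -1.22 without 408, at -1.49 without SVC library 412, at -1.23 without 414, and at -1.39 in a fit of all 15 libraries, which also lost Krt8 at -2.06. Without library 409 Krt18 passed at -2.07 (adjusted p = 0.0031, edgeR). Cldn4 and Psca did not pass the filter on low counts in SW mice. Psca had 48 counts over the SW adipocyte and 13 over the SW SVC libraries, 45 of the former in library 409, and Cldn4 had 34 counts in each fraction.

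Of the 10 genes, 8 passed the filter in SW mice and 7 of these were called lower in adipocytes, where 36.8% of all 14210 genes tested were called lower. Without overlap, 6 genes lay below SVC, against 29.4% of all genes. The median log2 fold change of the 8 genes was -1.93, against 0.02 over all genes. Of the 9 other mesothelial genes tested, 6 were called lower in adipocytes and 1 higher, Cldn15, and of the 6 other epithelial genes tested 1 was called lower, Cldn3. All 6 adipocyte markers were called higher and 5 of 6 macrophage markers lower in adipocytes, where 5143 of all 14210 genes tested were called higher.

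**Figure D5:**
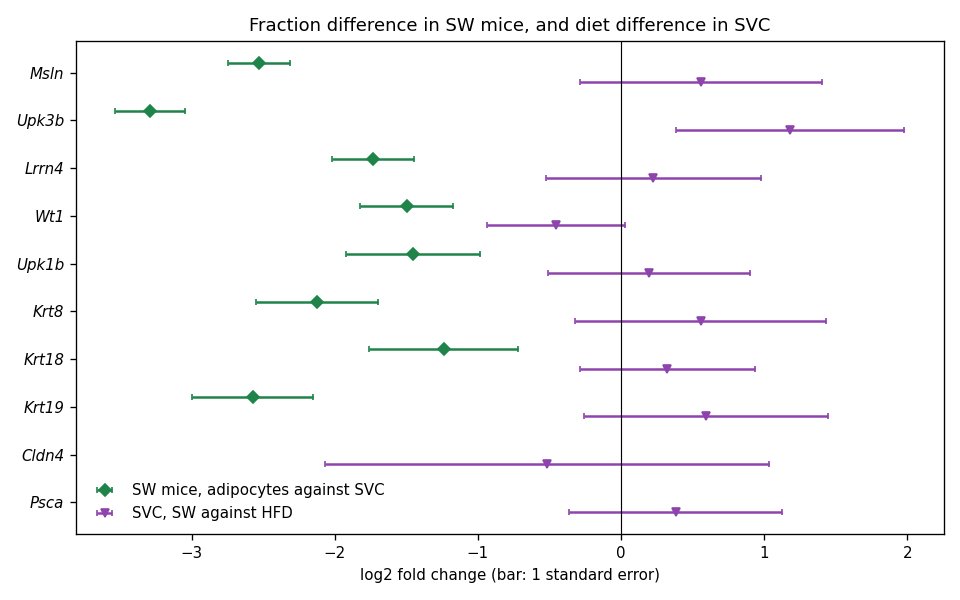
Fitted log2 fold changes with bars of 1 standard error for SW mice, adipocytes against SVC (diamonds, 8 genes tested), and for SVC, SW against HFD (triangles, 10 genes). The 8 fraction values run from -3.29 for Upk3b to -1.24 for Krt18, while the SVC diet values have bars that reach or cross 0 for all genes but Upk3b.

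The order of the genes also differed between the fractions. Per kilobase of transcript, SW SVC held most Upk3b (21.5 CPM per kilobase), then Krt19 (13.7), Msln (8.69), Krt8 (7.07), Krt18 (3.62), Upk1b (3.10), Wt1 (2.06), Lrrn4 (1.48), Cldn4 (0.536) and Psca (0.393). LFD SVC was led by Krt19 (138) and Upk3b (134), and Psca (8.25) and Cldn4 (8.10) stood above Wt1 (6.44). In LFD adipocytes, the means of Psca, 19.4, and Krt18, 17.4 CPM per kilobase, were above that of Upk3b, 7.74, the reverse of their order in SVC. The LFD libraries were far apart, with Krt18 at 16.8, 5.72 and 29.7 CPM per kilobase in libraries 404, 405 and 406. In SW adipocytes the order of these 3 genes was that of SVC, with Upk3b at 3.05, Krt18 at 2.13 and Psca at 1.36. Psca was also the gene with a higher mean in LFD adipocytes, 16.7 ± 13.7 CPM (SD, n = 3), than in the LFD SVC library, while the other 9 were higher in that library. Whether the diet difference itself differed between the fractions was not tested.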

How the data were processed

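RNA of adipocytes and SVC from epididymal fat was sequenced. Per the labels, the authors used Bowtie2, RSEM and the build mm9, and deposited RSEM's estimated counts per gene as whole numbers without normalization; versions are not given in the sources used here. Count columns carry a fraction, a diet and a number (401 to 414, 212 and 236) that is in no label, so each of the 15 was a replicate of its group. Another 3 columns of values were not used, since their names match no group. SW titles say low fat diet, and the treatment label was followed.

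Each fraction was fitted with edgeR 4.0.16 (R 4.3.3): filterByExpr (at least 10 counts), TMM scaling, robust quasi-likelihood and Benjamini-Hochberg adjustment at 0.05. SW mice of both fractions formed another fit. Levels are CPM of total counts without TMM. The 10 genes, the 10 marker lists (78 genes, all found) and the tests were chosen with earlier results of these data known. Genes named from a list outside the 10 are the most abundant of the list in a fraction, and others were named after their values were seen. RSEM shares reads out among similar transcripts, and values of keratins, which have close paralogs and pseudogenes, are less certain. Coordinates, lengths and gene neighbours come from GENCODE M21 (GRCm38) by Ensembl ID. The longest transcript gave the length, and promoters came from RefSeq (GRCm38.p6). No pair of replicate libraries agreed within counting noise. Intervals cover counting error only. The fits were tested on simulated data. Alternatives were other scaling, filters, DESeq2 1.42.0, limma-voom (limma 3.58.1), thinning and leaving out libraries. Values of 1 gene of the other epithelial list are not reported here.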

Additional observations from a re-analysis of the deposited data

How the results depend on the processing

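The number of the 10 genes called lower in HFD than in LFD adipocytes, 8 in the report, was 5 with at least 10 counts in every library, where 7 genes were tested, and 5 with LFD libraries 404 and 406 left out together. For SW against LFD, 5 in the report, it was 0 with no filter on low counts and 8 after thinning to the smallest library. Over all genes tested, 805 of 23589 and 820 of 13309 were called lower in these settings. The count of the 10 genes ran from 1 to 6 when each library was left out in turn. The cause was not tested. For SW against HFD it ran from 0 to 1 in adipocytes, the 1 being Lrrn4 without HFD library 402. In SVC it was 0 in every alternative that kept both HFD libraries. For adipocytes against SVC in SW mice it stayed between 5 and 8 over all alternatives.

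Directions that turned belonged to values that were not called. Wt1 was at 0.0022 for SW against HFD adipocytes after thinning, Lrrn4 at 0.089 with limma-voom, and Cldn4 at 0.42 for SW against LFD with both LFD libraries left out. In SVC, Cldn4 was at 1.20 with limma-voom and Psca at -0.55 after thinning. With each library left out in turn, the log2 fold change of Wt1 for HFD against LFD adipocytes ran from -0.36 to 0.032. For SW against HFD adipocytes Msln ran from -0.0045 to 0.94, Krt8 from -0.26 to 1.82, Lrrn4 from -0.87 to 0.15, Cldn4 from -0.34 to 6.54 and Psca from -0.35 to 5.03. For SW against HFD in SVC Msln ran from -0.25 to 3.17, Upk1b from -0.52 to 2.0, Wt1 from -0.93 to 0.38, Krt8 from -0.27 to 3.34, Krt18 from -0.33 to 1.81, Krt19 from -0.23 to 3.28, Lrrn4 from -0.53 to 2.34 and Cldn4 from -2.06 to 6.69. Krt18 in SW mice passed with DESeq2 and limma-voom, and Cldn4 for HFD against LFD did not pass with limma-voom.

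No paired analysis was possible because the count columns carry none of the replicate numbers of the labels, so the planned replicate block was not run. Depth limits Cldn4 and Psca most, at 8 or fewer counts in most HFD and SW libraries.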

Other observations

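Transcripts of other tissues next to the fat pad were seen in SVC. The 6 germ cell genes summed to 573 and 715 CPM in SW SVC libraries 412 and 413, to 23.8 CPM in SW library 414, and to 6.10 to 18.6 CPM in the LFD and HFD SVC libraries. Prm2, a protamine that packs sperm DNA, was at 289 and 259 CPM in libraries 412 and 413 and at 14.2 CPM in library 414. The 10 mesothelial and epithelial genes did not follow this split, with a sum of 143 to 166 CPM over the 3 SW SVC libraries. In adipocytes the germ cell genes summed to 0.632 to 4.56 CPM in LFD and HFD and to 3.80 to 16.5 CPM in SW libraries.

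Insl3, a hormone of Leydig cells, was at 4.07, 10.4 and 5.19 CPM in LFD adipocyte libraries, at 0.135 CPM or less in HFD and at 3.57 to 5.74 CPM in SW adipocyte libraries. The other 5 Leydig cell genes were at 2.95 CPM or less in every adipocyte library, and the list summed to 36.1 to 84.5 CPM in SW, 15.9 and 41.0 CPM in HFD and 11.9 CPM in LFD SVC. The 3 Leydig cell genes tested in adipocytes did not move together. For HFD against LFD the log2 fold change was -6.86 ± 0.75 for Insl3, with 3 HFD counts in all, but 1.09 ± 0.32 for Star and 1.04 ± 0.68 for Cyp11a1. For SW against HFD the values were 6.31 ± 0.76 for Insl3, -0.55 ± 0.30 for Star and -0.22 ± 0.62 for Cyp11a1. Insl3 was under the filter's level in every HFD library and passed it through LFD and SW libraries, so its values are a description.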
